A study of Mus musculus with 96 samples.

Results

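The Akr1c genes encode aldo-keto reductases of subfamily 1C, cytosolic enzymes that use nicotinamide cofactors to reduce ketones and aldehydes or to oxidise alcohols. Their best known substrates are steroid hormones, whose activity changes when a keto group at a single position of the steroid is turned into a hydroxyl group or back. In mouse liver they take part in clearing steroids and foreign carbonyl compounds, and in mouse ovary Akr1c18 is known for ending progesterone action before birth. The 7 members Akr1c6, Akr1c12, Akr1c13, Akr1c14, Akr1c18, Akr1c19 and Akr1c20 were chosen by their mouse symbols among 38924 genes, and all 7 passed the filters on low counts of both tests.

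Livers came from 48 males, the F1 offspring of PWK/PhJ and NOD/ShiLtJ crossed in both directions. PWK/PhJ is an inbred line of wild mouse origin, and NOD/ShiLtJ is used as a model of autoimmune diabetes. Every mouse therefore carried 1 PWK and 1 NOD chromosome set, and the strain written first in PWKxNOD or NODxPWK was taken as the dam. Diets held 0.050 g/kg (high) or 0.009 g/kg (normal) of cholecalciferol, which is vitamin D3. Mice were older (labels 24 or 25) or younger (label 8). The labels give these ages no unit and the protocol names 15 and 24 weeks, so ages are given here as older and younger only. The 8 groups were PWKxNOD older mice on the high and on the normal diet, PWKxNOD younger mice on the high and on the normal diet, and the same 4 sets of NODxPWK mice, with 6 mice each. Label 25 was carried by 7 mice, all older and on the normal diet (2 PWKxNOD and 5 NODxPWK). Reads were shared out between the alleles before deposit, and each gene has an expected count, an estimated number of reads that need not be whole, for its PWK and its NOD allele. Total expression is the sum of both, and CPM is that sum per M counts (M for mega) of the mouse's TMM-scaled library. A mouse had 2.03 to 7.48 M summed counts, with a median of 5.275 M, and 6 mice that shared a sequencing barcode had 2.03 to 3.09 M. Summed hepatocyte markers, 15 genes that include albumin, stood at 94264 to 162899 CPM in the 48 mice. Of the steroid-making organs near the liver, the adrenal cortex list of 6 genes summed to 0.0 to 3.44 CPM, with Cyp11a1, Cyp11b1, Cyp11b2 and Mc2r under a mean of 1 count. In bulk liver, fewer cells of a type and less RNA per cell cannot be told apart.

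The 7 genes lie within 474.3 kb of chromosome 13 (GRCm38, 4049011 to 4523345). In order they are Akr1c14 (4049011 to 4090688, plus strand), Akr1c18 (4132615 to 4150654, minus strand), Akr1c13 (4191150 to 4205596, plus strand), Akr1c19 (4228700 to 4252843, plus strand), Akr1c12 (4268176 to 4279433, minus strand), Akr1c6 (4434306 to 4457877, plus strand) and Akr1c20 (4486849 to 4523345, minus strand). Their Ensembl identifiers in the same order are ENSMUSG00000033715, ENSMUSG00000021214, ENSMUSG00000021213, ENSMUSG00000071551, ENSMUSG00000021211, ENSMUSG00000021210 and ENSMUSG00000054757. A further gene of the cluster, Akr1c21, had at most 3 counts in a mouse (0.602 CPM).

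How far a read can tell these genes apart bears on every value below, so 1 stretch of 68 coding bases, the length of a read, is shown for each gene. It covers coding positions 85 to 152 counted from the A of the start codon, lies in a single exon in every gene, and comes from the GENCODE M21 transcripts of GRCm38, which is the C57BL/6J reference and not the NOD or PWK sequence. Capitals mark bases that differ from Akr1c13.
Akr1c14, chr13:4063554-4063621, plus strand: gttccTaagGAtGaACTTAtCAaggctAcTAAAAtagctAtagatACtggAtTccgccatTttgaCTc
Akr1c18, chr13:4145306-4145373, minus strand: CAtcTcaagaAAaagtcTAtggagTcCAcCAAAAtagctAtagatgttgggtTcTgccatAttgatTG
Akr1c13, chr13:4194034-4194101, plus strand: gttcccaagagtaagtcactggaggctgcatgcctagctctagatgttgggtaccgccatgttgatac
Akr1c19, chr13:4236089-4236156, plus strand: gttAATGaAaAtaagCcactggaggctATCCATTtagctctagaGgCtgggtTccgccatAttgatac
Akr1c12, chr13:4276329-4276396, minus strand: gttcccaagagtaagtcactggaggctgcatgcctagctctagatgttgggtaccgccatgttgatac
Akr1c6, chr13:4436280-4436347, plus strand: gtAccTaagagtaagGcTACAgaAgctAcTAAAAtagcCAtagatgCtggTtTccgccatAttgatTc
Akr1c20, chr13:4514361-4514428, minus strand: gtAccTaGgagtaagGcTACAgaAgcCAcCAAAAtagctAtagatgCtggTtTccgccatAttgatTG
Akr1c12 and Akr1c13 are identical over this stretch, Akr1c19 differs from Akr1c13 at 18 bases, Akr1c18 and Akr1c6 at 21 each, Akr1c20 at 23 and Akr1c14 at 25.

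Each coding sequence is 969 bases long without its stop codon. Akr1c12 and Akr1c13 were identical at 96.2% of aligned bases, with an unbroken run of 228 bases, and shared 238 windows of 68 bases between their transcripts, 19.9% of those of Akr1c12 and 16.6% of those of Akr1c13. Akr1c6 and Akr1c20 were identical at 92.3%, with a longest run of 65 bases, and shared no window of 68 bases. All other pairs lay between 71.9 and 77.8%. Akr1c18, Akr1c6 and Akr1c20 had no such window in any other annotated gene. Akr1c14 shared 5.26% of its windows with the overlapping predicted gene Gm18857, and Akr1c19 shared 3.85% with Marcksl1-ps4.

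The deposited values set apart the same pairs of near relatives, though not by shared windows alone. The total of both alleles was a whole number, within 0.01, in all 48 mice for Akr1c14, Akr1c18 and Akr1c19. It was whole in 0 of 48 mice for Akr1c12 and for Akr1c13, but the 2 totals together came to a whole number in 48 of 48 mice. Akr1c6 and Akr1c20 were each whole in 31 mice, and their sum was whole in 48. Separate values of Akr1c12 and Akr1c13 are therefore uncertain, and their sum is given for the alleles, for age and for diet by age.

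Akr1c18 encodes 20-alpha-hydroxysteroid dehydrogenase, which inactivates progesterone, and its liver transcripts came almost wholly from the PWK allele. Summed over the 48 mice, it had 9895.3 PWK counts and 48.7 NOD counts, a ratio of 203, so that NOD held 0.49% of its counts. Without 4 mice described below, NOD held 0.24 counts in all (0.0026%). In 44 mice the NOD allele had under 0.1 counts against totals of 70 to 318, where a count of 0 allows a NOD share of up to 0.943 to 4.29% by a floor of 3 counts per mouse. The other 4 mice had 16.15 NOD counts among 218 (7.41%, Wilson 95% interval 4.57 to 11.6%), 9.06 among 222 (4.08%, 2.15 to 7.52%), 9.7 among 171 (5.67%, 3.21 to 10.4%) and 13.53 among 210 (6.44%, 4.01 to 10.9%). In that order they were a PWKxNOD younger mouse, a pair of PWKxNOD older mice and a NODxPWK younger mouse, and all 4 were on the high diet. Intervals and floors cover counting error only, and treat every expected count as a read that tells the alleles apart. How many reads did so is not given, so the true limits may be wider. Among 43 other genes with a PWK share of at least 99%, the summed NOD share was 0.63 to 0.89% in these 4 mice and 0.364 to 1.33% in the other 44, so the ranges overlapped.

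Nearly all Akr1c18 counts came from PWK whichever strain was the dam. The PWK allele held 99.3% ± 1.99 of its counts in PWKxNOD mice and 99.7% ± 1.31 in NODxPWK mice (SD, n = 24 each). With the high diet it held 99.02% ± 2.30 and with the normal diet 99.995% ± 0.0093 (n = 24 each), with the 4 mice above accounting for the wider spread on the high diet. It held 99.6% ± 1.40 in older and 99.4% ± 1.96 in younger mice. No test is given for these shares, because the family was taken up with them known. Of 9362 autosomal genes with a mean of at least 20 counts per mouse, 30 had a higher pooled PWK share than the 99.5% of Akr1c18.

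The neighbours of Akr1c18 on both sides did not share its allele balance. Akr1c14, 1 gene before it, drew 46.4% ± 4.63 of its counts from PWK (SD, n = 48), with a range of 38.4 to 59.7%. It encodes a 3-alpha-hydroxysteroid dehydrogenase, which acts on dihydrotestosterone and other reduced steroids. Akr1c13, the next gene after it, stood at 60.9% ± 7.52 with a range of 40.3 to 76.4%. Akr1c18 had the highest share of the 7 genes in 48 of 48 mice. Outside the cluster, the nearest genes of sufficient count on the Akr1c14 side were Net1, Asb13, Fam208b and Gdi2, at 45.3 to 53.9% PWK.

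**Figure D1:**
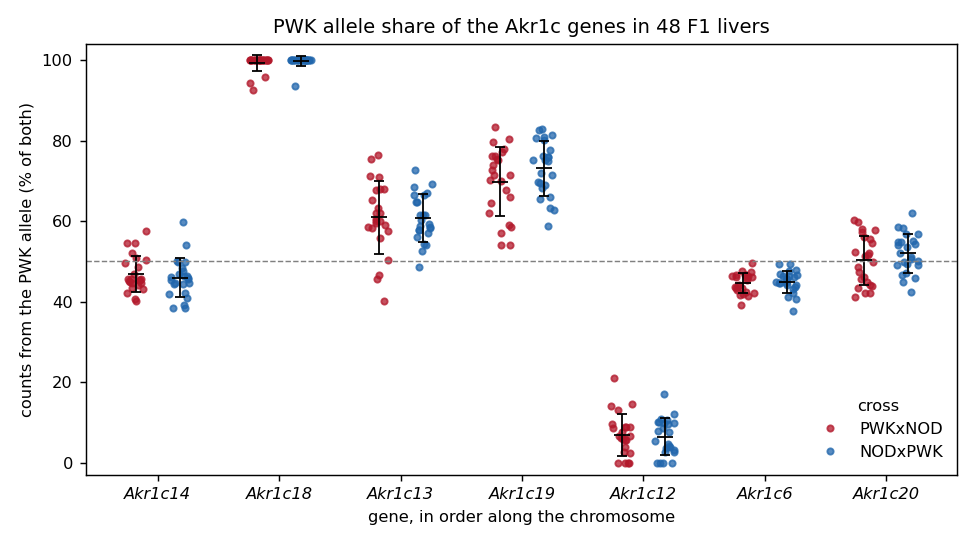
Share of counts from the PWK allele (vertical axis, percent of PWK and NOD together) for the 7 genes in chromosomal order, 1 point per mouse, PWKxNOD in red left of NODxPWK in blue, with mean and SD in black (n = 24 per cross). Akr1c18 lies at or near 100% apart from 4 mice at 92.6 to 95.9%, Akr1c12 lies at 0 to 21.01%, and the other 5 genes lie between 37.8 and 83.3%.

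Akr1c12 showed the opposite imbalance. It encodes an oxidoreductase of hydroxysteroids and other alcohols and ketones, and its PWK share was 6.71% ± 4.83 (SD, n = 48), with a range of 0.0 to 21.01%. It averaged 6.87 ± 4.91 PWK counts and 98.7 ± 29.9 NOD counts per mouse. The share was 6.97% ± 5.18 in PWKxNOD mice and 6.45% ± 4.54 in NODxPWK mice (n = 24 each). Akr1c12 had the lowest share of the 7 genes in 48 mice, and 71 of the 9362 autosomal genes had a lower pooled share than its 6.51%.

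Akr1c13, the near-identical relative of Akr1c12, leaned to PWK, with 205.8 ± 65.1 PWK counts and 131.7 ± 44.4 NOD counts per mouse. Its share passed 50% in 44 of 48 mice. Summed over both genes, the PWK share was 47.9% ± 5.83, with a range of 32.7 to 56.6%, and 47.8% ± 6.29 in PWKxNOD against 47.9% ± 5.46 in NODxPWK mice. The 2 genes leaned in opposite directions, and their sum leaned slightly to NOD. How far reads from their shared 68-base windows were split between them was not tested.

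**Figure D2:**
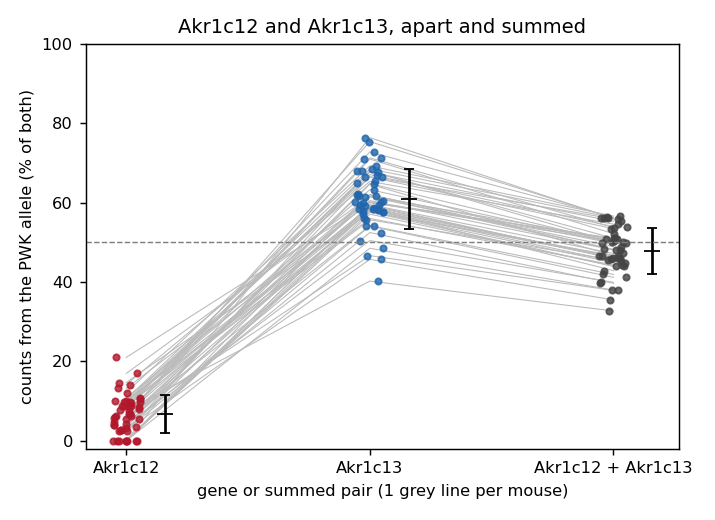
PWK share of counts (percent) for Akr1c12, Akr1c13 and both summed, 1 point per mouse and 1 grey line per mouse, with mean and SD beside the points (n = 48). Points average 6.71% for Akr1c12, 60.9% for Akr1c13 and 47.9% for the sum.

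The likeness of the pair extends to the start of the genes. The RefSeq windows from 250 bases before to 50 bases after the start (GRCm38.p6, reference strain) were found for 6 of the 7 members, and those of Akr1c12 and Akr1c13 were identical at 93.4% of aligned bases. Capitals mark bases of one that differ from, or are missing in, the other.
Akr1c12, chr13:4279350-4279649, minus strand: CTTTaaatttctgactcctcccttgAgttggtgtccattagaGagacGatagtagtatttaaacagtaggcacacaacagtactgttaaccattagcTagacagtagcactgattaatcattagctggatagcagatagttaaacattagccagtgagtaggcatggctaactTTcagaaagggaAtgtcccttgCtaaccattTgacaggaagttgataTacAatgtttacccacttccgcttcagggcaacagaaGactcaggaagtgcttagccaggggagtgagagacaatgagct
Akr1c13, chr13:4190937-4191236, plus strand: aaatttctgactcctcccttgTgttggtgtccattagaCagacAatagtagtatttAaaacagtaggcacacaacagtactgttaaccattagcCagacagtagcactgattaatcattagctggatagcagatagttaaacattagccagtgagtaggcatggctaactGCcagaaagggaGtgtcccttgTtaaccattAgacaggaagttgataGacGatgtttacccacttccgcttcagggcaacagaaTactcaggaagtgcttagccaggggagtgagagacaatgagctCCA
Between the other pairs of members the windows were identical at 39.8 to 55.7%. Short patterns of letters were then counted in the members' windows and in all 32851 windows of 300 bases, on both strands. AACCATTAG, chosen after reading the members' windows, occurred once for Akr1c12, 2 times for Akr1c13 and once for Akr1c19, and in 0.19% of all windows. TGTTTAC, the core letters of forkhead factor sites, occurred once each for Akr1c12 and Akr1c13 and in 3.65% of all windows, without overlapping AACCATTAG. The TATA box letters TATAAA occurred for Akr1c6 alone of the 6, and in 13.6% of all windows. These are letter matches in the reference strain, not binding sites.

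Akr1c19 encodes a reductase of broad substrates and had the second highest share, 71.5% ± 7.84 from PWK (range 54.0 to 83.3%, n = 48), above 50% in all 48 mice. It averaged 69.8% ± 8.56 in PWKxNOD and 73.2% ± 6.81 in NODxPWK mice, with overlapping ranges. Akr1c6 and Akr1c14, the most abundant members, leaned slightly to NOD. Akr1c6, the 17-beta-hydroxysteroid dehydrogenase of type 5 in mouse, stood at 44.8% ± 2.56 PWK, below 50% in all 48 mice. Akr1c14 was below 50% in 39 mice. Akr1c20, a liver hydroxysteroid dehydrogenase, was close to balance at 51.1% ± 5.54, with a range of 41.1 to 61.9% and 27 mice above 50%. Its group means ran from 45.5% ± 3.27 in PWKxNOD younger mice on the high diet to 53.5% ± 7.17 in PWKxNOD older mice on the normal diet (SD, n = 6 each), with overlapping ranges.

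As log2 ratios of PWK over NOD ± SE, the fit gave 1.37 ± 0.08 for Akr1c19, 0.65 ± 0.07 for Akr1c13, 0.07 ± 0.05 for Akr1c20, -0.21 ± 0.04 for Akr1c14, -0.30 ± 0.02 for Akr1c6 and -3.95 ± 0.21 for Akr1c12. The fitted 9.09 ± 0.44 of Akr1c18 depends on how near-zero NOD counts are handled and is no bound. For Akr1c12 and Akr1c13 summed the ratio was -0.13 ± 0.05. At an adjusted p under 0.05 this fit called 6 of the 7 genes and 43.6% of all 9362, and nothing is read from that count, since the family was taken up with these ratios known. The whole family, summed, stood at 48.4% ± 1.82 PWK (n = 48), and at 46.5% ± 1.92 without Akr1c18.

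**Figure D3:**
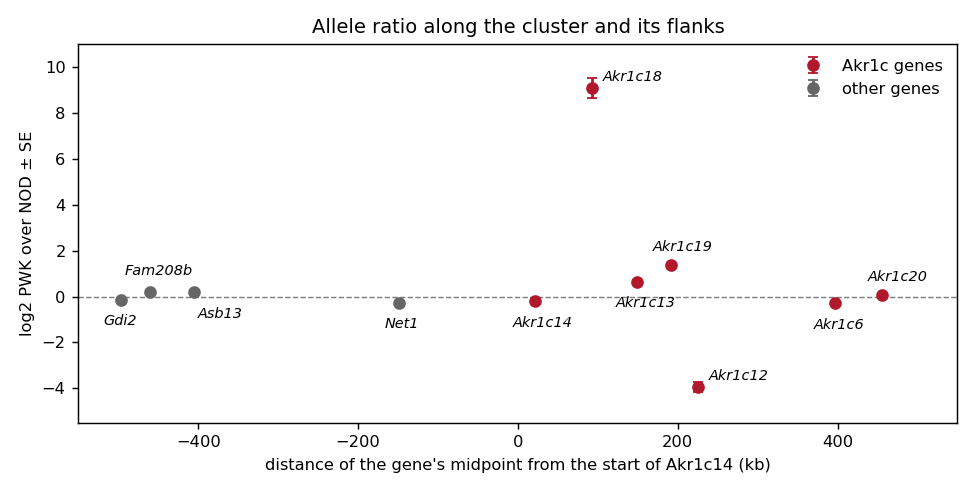
Fitted log2 ratio of PWK over NOD ± SE (vertical axis) against the distance of each gene's midpoint from the start of Akr1c14 (kb), members in red and flanking genes in grey. Akr1c18 (9.09) and Akr1c12 (-3.95) stand far from 0, and the 4 flanking genes lie between -0.28 and 0.22.

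Whether the allele ratio depended on the parent, the age or the diet was tested as well. The genes were chosen with earlier results of these data known, so these tests may not be independent of that choice. Maternal over paternal expression gave 0 of 6 called members by edgeR's quasi-likelihood test, against 0.267% of all genes, with 0 at an unadjusted p under 0.05 and 0 by limma. Akr1c18 could not be fitted here, since its NOD counts were almost all 0. The ratio of Akr1c19 leaned further to PWK in older mice by 0.38 ± 0.15 on the log2 scale, which failed the adjustment (p = 0.0182, adjusted p = 0.618 by edgeR). Its PWK share averaged 74.1% ± 6.58 in older and 68.8% ± 8.23 in younger mice (SD, n = 24 each), and the ranges of 58.5 to 83.3% and 54.0 to 80.8% overlapped. The 2 comparisons of the ratio by age and by diet called 0 of 6 fitted members by edgeR, with 1 and 0 at an unadjusted p under 0.05, where 0.705% and 0.0214% of all genes were called.

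Total expression was dominated by Akr1c6. It averaged 694 ± 107 CPM (SD, n = 48) and held 61.4% of the family's counts. Akr1c14 followed with 228 ± 43.6 CPM and 20.1%, and the other 5 genes held 1.82 to 5.82% each. Levels of different genes are compared per kb of exons joined over all transcripts, a length that differs from 1207 bases for Akr1c18 to 5892 bases for Akr1c19. On that scale the order of mean CPM per kb was Akr1c6 (341), Akr1c14 (70.3), Akr1c13 (45.5), Akr1c18 (32.996), Akr1c20 (25.3), Akr1c12 (16.1) and Akr1c19 (5.90). Each gene stood above the next in 48 of 48 mice, except that Akr1c13 stood above Akr1c18 in 46 and Akr1c18 above Akr1c20 in 41. Below Akr1c14 the order rests on the length used. Over the shortest coding transcripts it would be Akr1c20 (56.6), Akr1c13 (51.6), Akr1c19 (46.5), Akr1c18 (36.1) and Akr1c12 (16.1), and over the longest Akr1c20 (35.2 CPM per kb) would stand above Akr1c18 (33.2).

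The age comparison asks which transcripts differed between older and younger adults. Akr1c13 and Akr1c19 were higher in older mice, by 0.33 ± 0.04 and 0.49 ± 0.07 on the log2 scale (adjusted p = 1.38e-08 and 3.59e-07, edgeR quasi-likelihood test over 11979 genes). Akr1c20 was higher by 0.26 ± 0.07 (adjusted p = 0.00482) and Akr1c6 by 0.19 ± 0.06 (adjusted p = 0.0307). With 4 of 7 members called higher, the background is the 6.42% of all genes that were called higher, and 12% were called in either direction. The median difference of the 7 was 0.19, against -0.0035 over all genes. Akr1c12 (0.08 ± 0.05, adjusted p = 0.435), Akr1c14 (-0.01 ± 0.07, adjusted p = 0.948) and Akr1c18 (-0.02 ± 0.06, adjusted p = 0.867) did not pass.

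In total CPM, Akr1c13 had a lowest, median and highest value of 59.5, 71.7 and 87.0 in older mice and of 48.9, 57.9 and 65.1 in younger mice (n = 24 each). The ages overlapped between 59.5 and 65.1 CPM only. Within cross and diet, older mice had the higher mean in 4 of 4 pairs of groups and did not overlap the younger in 2 of them. Those were the pairs on the normal diet, which held all 7 mice labelled 25. How many of all genes had no overlap was not counted. Summed with Akr1c12, Akr1c13 was higher by 0.27 ± 0.04 (adjusted p = 1.18e-06), so the sum of the pair was called as well.

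Akr1c19 had 31.2, 39.5 and 66.0 CPM as its lowest, median and highest value in older mice and 16.5, 29.3 and 37.9 CPM in younger mice. The widest gap was in NODxPWK mice on the normal diet, with 38.7 to 48.2 CPM in older and 16.5 to 28.2 CPM in younger mice. The same 2 groups were apart for Akr1c20, at 54.0 to 69.2 and 34.8 to 45.9 CPM. Of their 6 older mice 5 carried label 25, against 2 of the 6 PWKxNOD older mice on the normal diet. How many of all genes were apart in this way was not counted. In PWKxNOD mice on the normal diet Akr1c20 overlapped, at 37.04 to 58.04 CPM in older and 36.8 to 53.0 CPM in younger mice. Its age difference in PWKxNOD minus that in NODxPWK mice was -0.36 ± 0.13, which failed the adjustment (p = 0.00912, adjusted p = 0.347 by edgeR, where 0.0501% of all genes were called).

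Akr1c6 had 584, 733 and 928 CPM in older mice and 460.2, 644 and 840 CPM in younger mice, with a wide overlap. Its call and that of Akr1c20 are less secure than the other 2. Without the 7 mice labelled 25 the difference was 0.10 ± 0.07 for Akr1c6 and 0.20 ± 0.08 for Akr1c20. That fit left 1 older NODxPWK mouse on the normal diet, which was assumed to vary like the other groups. Without 8 mice that held over 100 CPM of summed exocrine pancreas markers the differences were 0.15 ± 0.06 for Akr1c6 (adjusted p = 0.115) and 0.19 ± 0.07 for Akr1c20 (adjusted p = 0.0639). With a score of clock genes as a covariate they were 0.21 ± 0.07 (adjusted p = 0.08) and 0.23 ± 0.08 (adjusted p = 0.0855).

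Marker lists of cell types and the clock genes were set beside the age difference of the members. Over all genes, 12% were called for age in either direction and 6.42% higher. The 15 pancreas markers summed to 26.1 to 272 CPM in older mice (5 of 24 over 100 CPM) and to 16.5 to 1891 CPM in younger mice (3 of 24), and 0 of 14 tested were called. The 7 bile duct markers summed to 28.7 to 122 CPM in older and 24.3 to 40.2 CPM in younger mice, and the 2 tested, Spp1 and Sox9, were called higher. Hepatocyte markers had 3 of 15 called higher and 3 lower, endothelial markers 1 of 7 higher and 2 lower, and red cell markers 1 of 5 higher. The only lymphoid gene tested was called higher, and no stellate, Kupffer or fat cell gene was called. The part of these cell types in the members' differences was not tested. The clock score, which sets 6 genes with Dbp and Per3 among them against 4 of opposite phase with Arntl and Npas2 among them (difference of mean log2 CPM), ranged from -2.82 to 3.95 in older and from 0.478 to 4.17 in younger mice. Within the older mice it was 0.873 to 3.95 in PWKxNOD and -2.82 to 1.17 in NODxPWK mice. Clock genes, which follow the hour of the day, had 1 of 10 members higher and 6 lower in older mice.

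Akr1c18 did not share the age difference. It had 29.01, 38.9 and 49.3 CPM as its lowest, median and highest value in older mice and 29.03, 40.6 and 54.4 CPM in younger mice, and the ages overlapped over nearly the whole range. Its group means in PWKxNOD mice were 40.3 ± 5.90 (high, older), 44.4 ± 5.85 (high, younger), 37.1 ± 4.63 (normal, older) and 39.04 ± 6.64 CPM (normal, younger). In NODxPWK mice they were 44.1 ± 4.08 (high, older), 38.5 ± 6.25 (high, younger), 36.1 ± 6.11 (normal, older) and 38.9 ± 3.93 CPM (normal, younger, SD, n = 6 each). The 8 means lay within 36.1 to 44.4 CPM, and every group overlapped every other.

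The other 2 members without an age call behaved in different ways between groups. Akr1c14 had 159, 219.8 and 329 CPM as its lowest, median and highest value in older mice and 165, 227 and 277 CPM in younger mice. Its lowest group mean was that of NODxPWK older mice on the high diet, 186 ± 33.02 CPM, and its highest that of NODxPWK older mice on the normal diet, 255 ± 42.6 CPM (SD, n = 6 each). Older mice had the higher mean in 1 of the 4 pairs of cross and diet, as for Akr1c18. Akr1c12 had 16.5, 20.7 and 28.8 CPM in older and 16.4, 19.7 and 24.3 CPM in younger mice, and its mean was higher in older mice in all 4 pairs, by less than the spread between mice. Its 8 group means stayed within 19.3 to 21.98 CPM.

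**Figure D4:**
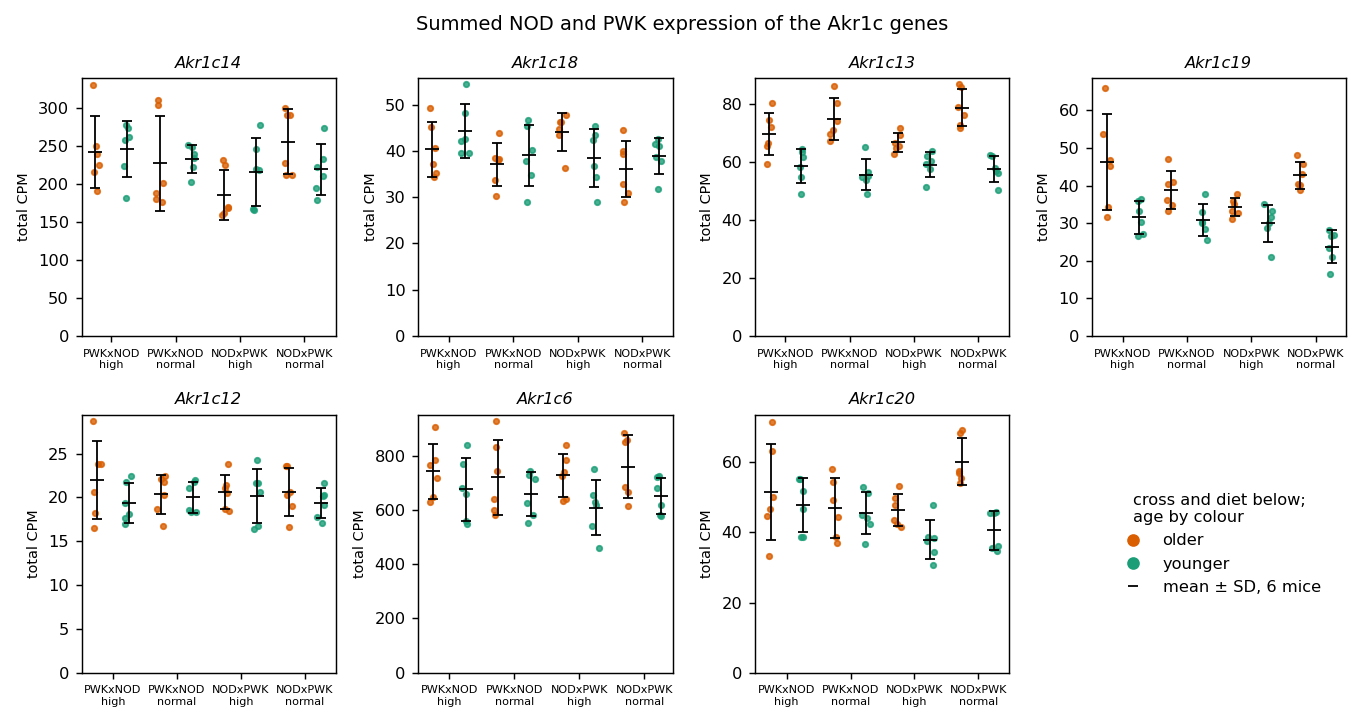
Total CPM of each gene in the 8 groups, 1 point per mouse with mean and SD (n = 6), older in orange left of younger in green, for PWKxNOD high, PWKxNOD normal, NODxPWK high and NODxPWK normal. Akr1c13 and Akr1c19 have higher means in older mice for all 4 pairs, and Akr1c18 has group means between 36.1 and 44.4 CPM.

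Related enzymes gave a mixed picture with age, to be set beside the 12% of all genes that were called (6.42% higher). Of 7 tested genes of other aldo-keto reductase subfamilies, 1 was called, a share near that background, and this was Akr1a1, an aldehyde reductase, which was higher by 0.18 ± 0.03 (adjusted p = 1.48e-05). Of 27 other genes of steroid and bile acid metabolism, 7 were called higher and 5 lower, with a median of 0.02. Hsd17b11, a 17-beta-hydroxysteroid dehydrogenase, was higher by 0.42 ± 0.05 (adjusted p = 1.89e-08), and Cyp39a1, an oxysterol hydroxylase, fell by 2.76 ± 0.32 (adjusted p = 8.73e-09). Of 19 targets of the stress-response factor Nrf2, which is known to drive aldo-keto reductase genes, 5 were higher and 2 lower. Gclc, of glutathione synthesis, was higher by 0.47 ± 0.06 (adjusted p = 2.12e-08), and Hmox1, haem oxygenase, fell by 0.46 ± 0.10 (adjusted p = 0.00153). Genes of the zone around the central vein had 5 of 12 higher and 0 lower, and those of the portal zone 1 of 10 higher and 5 lower. Of 20 genes with higher expression in male liver, 6 were higher and 1 lower.

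The diet comparison called 0 of 7 members by edgeR, with 1 at an unadjusted p under 0.05 and 0 by DESeq2, where 0.342% of all genes were called. That 1 was Akr1c18, at 0.14 ± 0.06 in high over normal (p = 0.0192, adjusted p = 0.31). It averaged 41.9 ± 5.80 CPM on the high and 37.8 ± 5.22 CPM on the normal diet (SD, n = 24 each), and the ranges of 29.05 to 54.4 and 29.01 to 46.7 CPM overlapped. In older mice alone the differences were 0.20 ± 0.08 for Akr1c18 (adjusted p = 0.168) and -0.16 ± 0.05 for Akr1c13 (adjusted p = 0.0811), where 3.71% of all genes were called. In younger mice alone they were 0.08 ± 0.08 for Akr1c18 (adjusted p = 0.997) and 0.05 ± 0.05 for Akr1c13 (adjusted p = 0.997). The difference between the ages in diet response called 0 of 7 members, with 1 at an unadjusted p under 0.05 (Akr1c13, -0.21 ± 0.08, adjusted p = 0.211, and -0.16 ± 0.08 for its sum with Akr1c12, adjusted p = 0.414) and 0 by DESeq2. There 0.618% of all genes were called. All 7 mice labelled 25 were older and on the normal diet, so the diet differences in older mice are mixed with that label.

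The reciprocal crosses differ in dam, and so in X and Y chromosome and mitochondria. They called 0 of 7 members by edgeR, with 1 at an unadjusted p under 0.05 and 0 by DESeq2, against 10.7% of all genes. The nearest was Akr1c19, at 0.19 ± 0.07 in PWKxNOD over NODxPWK (adjusted p = 0.0624). It averaged 36.8 ± 9.47 CPM in PWKxNOD and 32.7 ± 7.96 CPM in NODxPWK mice. Among other aldo-keto reductases, Akr1b7 was higher in PWKxNOD mice by 0.88 ± 0.21 (adjusted p = 0.00259). Clock genes had 6 of 10 called higher and 4 lower in PWKxNOD mice. With the clock score as a covariate, 0.518% of all genes were called for cross. The part of the clock in the differences between the crosses was not tested.

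**Figure D5:**
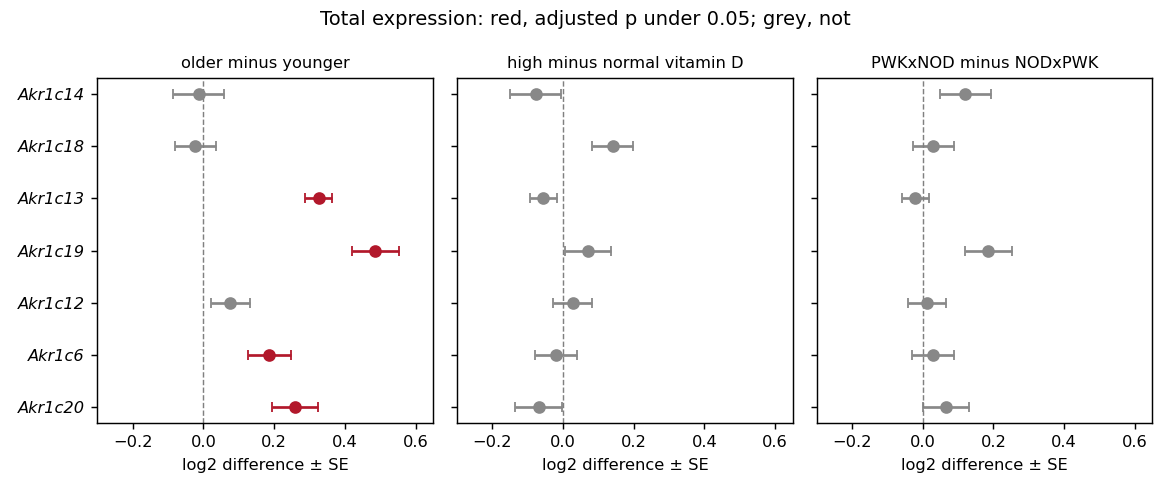
Log2 difference in total expression ± SE (horizontal axis) of the 7 genes for older minus younger, high minus normal diet and PWKxNOD minus NODxPWK, red where the adjusted p was under 0.05. Red points appear for age only, for Akr1c13, Akr1c19, Akr1c20 and Akr1c6.

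Mice of the same group also differed together in some members. Over the 48 mice, deviations of log2(CPM + 0.5) from the group means had a Pearson r of 0.82 between Akr1c14 and Akr1c6, 0.74 between Akr1c6 and Akr1c20 and 0.64 between Akr1c14 and Akr1c20 (Spearman 0.81, 0.73 and 0.63). Akr1c18 had 0.41 to 0.49 with the other 6. Values this low were not particular to it, since Akr1c19 had 0.38 with Akr1c6 and 0.44 with Akr1c14. Akr1c13 and Akr1c19 had 0.62. These mice share library preparation and depth scaling, and the values are descriptions. Of 10389 genes with a mean of at least 2 CPM, those most like Akr1c18 by this measure were Spag9 (0.73), a signalling scaffold, Abcb11 (0.72), the bile salt export pump, Glce (0.71), an epimerase of heparan sulfate, Paics (0.71), of purine synthesis, and Idh1 (0.70), isocitrate dehydrogenase. Among those most like Akr1c6 were Lamp2 (0.85), a lysosomal membrane protein, Trpm7 (0.84), a channel kinase, Slco1b2 (0.84), a hepatocyte uptake transporter, and Baat (0.84), which conjugates bile acids. None of these named genes lies on chromosome 13.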

How the data were processed

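For 48 mice the authors deposited expected counts by gene and allele, not scaled to depth and named in the labels as EMASE output. The submitters' processing notes name mm10 and GRCm38 as builds and list Bowtie 1.1.2 and CASAVA 1.7.0. For the EMASE version and annotation, nothing is given in the sources used here. The labels' protocols give poly-A selected, unstranded TruSeq libraries read over 68 bases from a single end. Runs on 2 flowcells went into 1 column per mouse in each allele table. Of 38924 genes, 37607 matched GENCODE M21 by identifier, and the other 1317 held 0.159% of counts.

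Totals (PWK plus NOD, rounded) were filtered by group with filterByExpr, scaled by TMM and fitted with 8 group means in edgeR 4.0.16 (R 4.3.3); contrasts were tested by the robust quasi-likelihood test, two-sided, with Benjamini-Hochberg adjustment over 11979 genes and a threshold of 0.05. Allele ratios were fitted in edgeR with PWK and NOD as 2 columns of 1 mouse, the mouse as a fixed effect, over 9362 autosomal genes with a mean of at least 20 counts. Tested on simulated data of 11819 genes with known age changes, 98% of 100 genes changed by 0.5 on the log2 scale were recovered, and 79% of 100 for PWK over NOD among 9362 genes. Changed genes had a mean of at least 20 counts. The simulation gave all genes the same spread, no diet or cross differences, and alleles that varied independently within a mouse. These shares are therefore not the power of the tests on the real data. Identities came from global alignments in Biopython 1.88.

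The members, lists and tests were chosen with earlier results of these data known. The 7 members are all named, with up to 4 called genes per list by p-value and the 5 genes most like Akr1c18 and Akr1c6, of which 1 is not reported here. Nothing in the labels says whether mice of a group shared a litter or cage. Per the labels, the 8 mice of a replicate number, 1 from each group, were sequenced in the same lanes. Deviations from group means had a median correlation of -0.018 over 168 pairs of mice within a lane set and of 0.006 over 840 pairs of different sets. No pair of mice within a group was as close as sampling noise (chi-square per gene 4.59 to 57.3, 120 pairs). Alternatives were DESeq2 1.42.0, limma 3.58.1 on log2((PWK + 0.5)/(NOD + 0.5)), RLE scaling, TMM per allele column, other filters, unrounded counts, the lane set as a block, and mice left out by lane set, age label or barcode. Fits without mice rich in pancreas transcripts, with a clock gene covariate and with Akr1c12 and Akr1c13 summed were added after seeing the data.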

Additional observations from a re-analysis of the deposited data

Results flagged for a closer look

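Values of the 7 members in each group of 6 mice were searched for a mouse far from the other 5, with shares rounded to 0.1 percentage points. Of 112 sets of values 3 stood out, a smaller part than the 1 in 20 that chance gives for normally spread values without ties. The shares were also known when the family was taken up, so nothing is read from this count. The PWK share of Akr1c18 was 92.6% in 1 PWKxNOD younger mouse and 93.6% in 1 NODxPWK younger mouse, both on the high diet, where the other 5 mice of each group had under 0.1 NOD counts. Those 5 shares were equal after rounding, so any mouse with another share would stand out, and the rate above does not hold there. The pair of PWKxNOD older mice with NOD counts shared a group and was not flagged. The PWK share of Akr1c13 was 69.3% in 1 NODxPWK older mouse on the high diet, against 56.0 to 59.4% in the other 5.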

How the results depend on the processing

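Of the 4 members called higher in older mice, 2 were called without the 8 mice over 100 CPM of pancreas markers, Akr1c13 and Akr1c19. The same 2 were called with the clock score as a covariate. Calls for age also fell over all genes, from 12% to 9.46% without those 8 mice and to 6.18% with the clock score. In these fits Akr1c6 was at 0.15 and 0.21 (adjusted p = 0.115 and 0.08, edgeR). Akr1c20 was at 0.19 and 0.23 (adjusted p = 0.0639 and 0.0855, edgeR). Without the mice labelled 25, Akr1c6 was at 0.10 and Akr1c20 at 0.20, in a fit that left 1 older NODxPWK mouse on the normal diet. The cause of these shifts was not tested. Leaving out each lane set in turn left 3 to 4 members called for age and 0 to 1 for cross. Of all genes, 8.74 to 11.7% were then called for age and 7.27 to 9.89% for cross. Akr1c6 lost its age call without lane sets 2, 4, 5 or 6, at 0.16 to 0.20 (adjusted p = 0.0558 to 0.125), and Akr1c19 gained a cross call without lane set 3 (0.22, adjusted p = 0.0372). Akr1c13 and Akr1c19 stayed called for age under every alternative, at 0.29 to 0.35 and 0.43 to 0.54. With the lane set as a replicate block, 4 members were called for age (11.6% of all genes were called in either direction). For diet, cross, diet by age and parent of origin 0 were called, so the block changed none of these calls. Of all genes, 0.459% were called there for diet, 10.6% for cross, 0.776% for diet by age and 0.246% for parent of origin. No called value changed sign; of 659 values of single members under alternatives, 34 that passed no test had the other sign. The ratio of Akr1c18 ranged from 8.21 to 9.95. Its NOD counts, 0.0 to 16.15 among totals of 70 to 318 per mouse, limit that ratio and leave its parent-of-origin effect unfitted.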

Other observations

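The allele share of Akr1c19 had its highest group mean in NODxPWK older mice on the high diet (76.7% ± 6.66 PWK) and its lowest in PWKxNOD younger mice on the high diet (65.5% ± 10.97, SD, n = 6 each). Group means of Akr1c6, the member with the most counts, ranged over 42.7 to 45.9%, and those of Akr1c14 over 43.3 to 48.8%. Akr1c12 had under 0.1 PWK counts in 8 of 48 mice. Among genes other than the members, 0 of 19 Nrf2 targets were higher and 4 lower in PWKxNOD than in NODxPWK mice. In that comparison 10.7% of all genes were called, and 0.518% with the clock score as a covariate. Gclc was lower in PWKxNOD mice by 0.38 ± 0.06 (adjusted p = 2.08e-06, edgeR). Of 9 tested genes with higher expression in female liver, 1 was higher and 5 lower in older than in younger mice, where 12% of all genes were called, and Cyp2a4, a steroid hydroxylase, fell by 1.26 ± 0.17 (adjusted p = 5.95e-07).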
